A study of Mus musculus with 32 samples.

Results

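Immune checkpoint and costimulatory genes were followed here in the cells of a mouse liver with and without metastasis of colorectal cancer (CRC), and in the tumors themselves. The genes are Cd274, Pdcd1lg2, Pdcd1, Ctla4, Cd80, Cd86, Lag3, Havcr2, Icosl and Cd276, 10 of the 34821 gene names on the array. They were chosen by name, and every probe that carried such a name and was not a control spot was used, which gave 13 probes. Pdcd1lg2, Cd80 and Icosl had a pair of probes each, of which the one with the higher variance over all channels is called the lead probe, and every other gene had 1.

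The study asked how the tumor microenvironment (TME) changes the resident cells of the liver. Male Balb/c mice aged 6 to 8 weeks received C26 CRC cells in the spleen, and control mice received PBS in the same way. After 14 days liver cells were isolated by collagenase perfusion, density gradients and, for Kupffer cells, adherence, and were held in culture for at most 24 hours. There were 8 groups with 4 samples each, which the methods call biological replicates. Sinusoidal endothelial cells, which line the liver capillaries, came from control livers (EC) and TME livers (ET). Ito cells, the stellate cells that store vitamin A, came from control (IC) and TME livers (IT). Kupffer cells, the resident macrophages, came from control (KC) and TME livers (KT). The other two groups were labelled as cells of the CRC primary tumor (TP) and of the liver metastasis (TM), and how these cells were obtained is not given in the sources used here. Where samples of a group did not come from separate animals, the p-values below measure technical spread only.

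T cells need a second signal besides their antigen receptor. Cd80 and Cd86 on antigen-presenting cells give it by binding Cd28, and Ctla4 on activated T cells binds the same ligands and restrains the response, whereas Icosl signals through Icos. Cd274 (PD-L1) and Pdcd1lg2 (PD-L2) bind Pdcd1 (PD-1), Lag3 and Havcr2 (TIM-3) are further inhibitory receptors, and Cd276 (B7-H3) is a B7 family protein found on many tumors. In the liver, macrophages and sinusoidal endothelial cells present antigen and carry several of these ligands.

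A level here is the log2 of the normalized intensity of a probe, so a difference of 1 is 2-fold. Levels are comparable for the same probe between samples and not between probes. The probes are 60-base oligos placed on the mm9 build, and 30-base stretches of those that the results turn on are shown, read 5′ to 3′. The Cd274 probe lies at chr19:29462363-29462422 on the plus strand. The lead Pdcd1lg2 probe, A_55_P2187141, lies at chr19:29545473-29545532 and the other, A_55_P2122075, at chr19:29545470-29545529. Both Pdcd1lg2 probes are shown because they read nearly the same site, 83.1 kb from that of Cd274. They are offset by 3 bases and equal at 55 of the 57 aligned bases, with the substitutions T50C and A55G counted from the 5′ end of A_55_P2187141. Capitals in their sequences mark those bases.
Cd274: ttgatgagtctcatgttaatgtcttgtttg
Pdcd1lg2 A_55_P2187141: aagcatttaagcaacacgtTaagtAccccc
Pdcd1lg2 A_55_P2122075: tggaagcatttaagcaacacgtCaagtGcc

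The probes of the receptor Pdcd1 (chr1:95935064-95935123, minus strand) and of Cd276 (chr9:58372107-58372150, minus strand) are shown because these genes differed most between TME and control channels. The coordinates given for Cd276 span 44 bases, fewer than the 60 of its probe. The lead Icosl probe, A_51_P520966 at chr10:77542211-77542270, is shown for its differences in Ito cells, and A_55_P2172106, at chr10:77545941-77546001, because it gave no level for the same gene. Havcr2 (chr11:46294675-46294734) and Cd86 (chr16:36603961-36604020, minus strand) are shown for their order across cell types. Capitals mark AATAAA, the polyadenylation hexamer, searched on the printed strand of the whole probes and found in 3 of the 13 probes and in 10.1% of all probes on the array.
Pdcd1: aaggaaagggggatataaccttgacgcaaa
Cd276: agagacctacttccagtgtactccaacaac
Icosl A_51_P520966: acctaacaagggAATAAAtgtaagatgtgc
Icosl A_55_P2172106: gactatttgattccaagatatttgatgtct
Havcr2: aatgttttaaagtAATAAAactgtactggc
Cd86: agagtggatttcAATAAAgttttcttgaat

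The 32 channels came from 16 two-colour arrays on 2 slides. Controls and TM carried Cy3 and TME and TP carried Cy5 on every array, so that the dye and the TME, and the dye and the kind of tumor, cannot be told apart. Endothelial and Ito arrays lay on one slide and Kupffer and tumor arrays on the other, so that the slide and a difference of Kupffer from endothelial or Ito cells cannot be told apart. Between 38.4 and 57.1% of spots per channel were well above background, and the number of arrays limits the precision. On array 4 of the Ito and of the Kupffer cells the TME and control channels ran against the rest: over 17104 probes that every channel measured above background, the differences correlated with the mean of the other arrays at -0.66 and -0.60, against 0.51 to 0.78 in endothelial cells, 0.19 to 0.28 on the other Ito and 0.41 to 0.47 on the other Kupffer arrays. By the same probes, 9 of the 32 channels were nearest to a channel of another group, among them IC replicate 4, IT replicates 1, 2 and 4, KC replicate 4, KT replicate 4, TM replicates 1 and 4, and TP replicate 3. IC replicate 4 was nearest to IT replicate 1 and IT replicate 4 to IC replicate 1, and KC replicate 4 to KT replicate 1 and KT replicate 4 to KC replicate 1. Whether the dyes and labels of these channels are as recorded was not tested, so that the TME differences over all arrays hold only if they are. All were kept under their labels, and calls that changed without array 4 are given with and without it, a step chosen after these values were seen. The liver fractions also held markers of each other, since all 8 endothelial, 8 Kupffer and 8 hepatocyte markers were well above background on every array of every liver group. The Ito fraction was not set apart by stellate markers: their summed level was 17.93 to 18.32 in EC and 17.04 to 18.14 in IC, and 0 of the 8 were called higher and 1 lower in IC than in EC, while 7 of 8 hepatocyte and 4 of 8 Kupffer markers were called higher, where 4.17% of all probes were. In bulk cells of this kind, fewer cells of a type and less RNA per cell cannot be told apart. Of 6 epithelial markers, 2 in TM and 3 in TP were well above background on all 4 arrays, whereas Epcam and Cldn7 were on none in either tumor group.

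Cd274, the ligand of Pdcd1 with the widest distribution, had a higher level in every liver cell fraction than in the tumors. In EC the samples read 15.42, 14.49, 14.42 and 15.38, and in ET 14.89, 14.36, 14.66 and 14.68. In IC they read 15.18, 15.02, 14.92 and 15.51, and in IT 15.48, 14.65, 15.62 and 15.15. In KC they read 15.41, 15.57, 14.80 and 15.56, and in KT 15.69, 15.84, 15.70 and 15.47. All liver groups overlapped their neighbours in the order KT, KC, IT, IC, EC and ET, and no step between them passed the limma test, the largest being 0.34. The TM samples read 5.76, 8.32, 7.62 and 6.52 and the TP samples 7.87, 6.68, 6.50 and 6.0, the last not well above background. Every tumor channel thus lay below every liver channel, and the step of 7.59 from ET to TM had an adjusted p of 1.52e-14.

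Pdcd1lg2, the second Pdcd1 ligand, was well above background in all 24 liver channels and in none of the tumor channels by its lead probe. Its liver means ran from 7.60 in KT through 7.13 in KC, 6.88 in IT, 6.77 in EC and 6.68 in IC to 6.24 in ET, and no step between neighbours was called. The tumor samples lay between 2.08 and 4.70, below all 24 liver channels. The other probe followed the lead probe with r = 0.96 over the 24 liver channels, a description over channels that share arrays. In the tumors they parted. By A_55_P2122075, TM read 2.34, 2.81, 2.25 and 4.79 and TP 4.19, 3.53, 4.98 and 6.09, with only replicate 4 of each well above background.

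Pdcd1, the receptor of both ligands on T cells, had its widest spread in the Ito groups. EC read 4.76, 5.06, 5.15 and 5.37 and ET 6.71, 6.56, 6.15 and 6.57. The IC samples read 3.91, 3.35, 4.34 and 7.99, of which only the last was well above background, and IT read 7.85, 8.09, 7.79 and 4.63, of which the last was not. The KC samples read 5.76, 6.52, 6.45 and 6.98 and KT read 6.83, 7.06, 6.68 and 5.77. ET lay above EC without overlap, while in Ito and Kupffer cells array 4 ran opposite to the other arrays. No tumor channel was well above background.

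**Figure D1:**
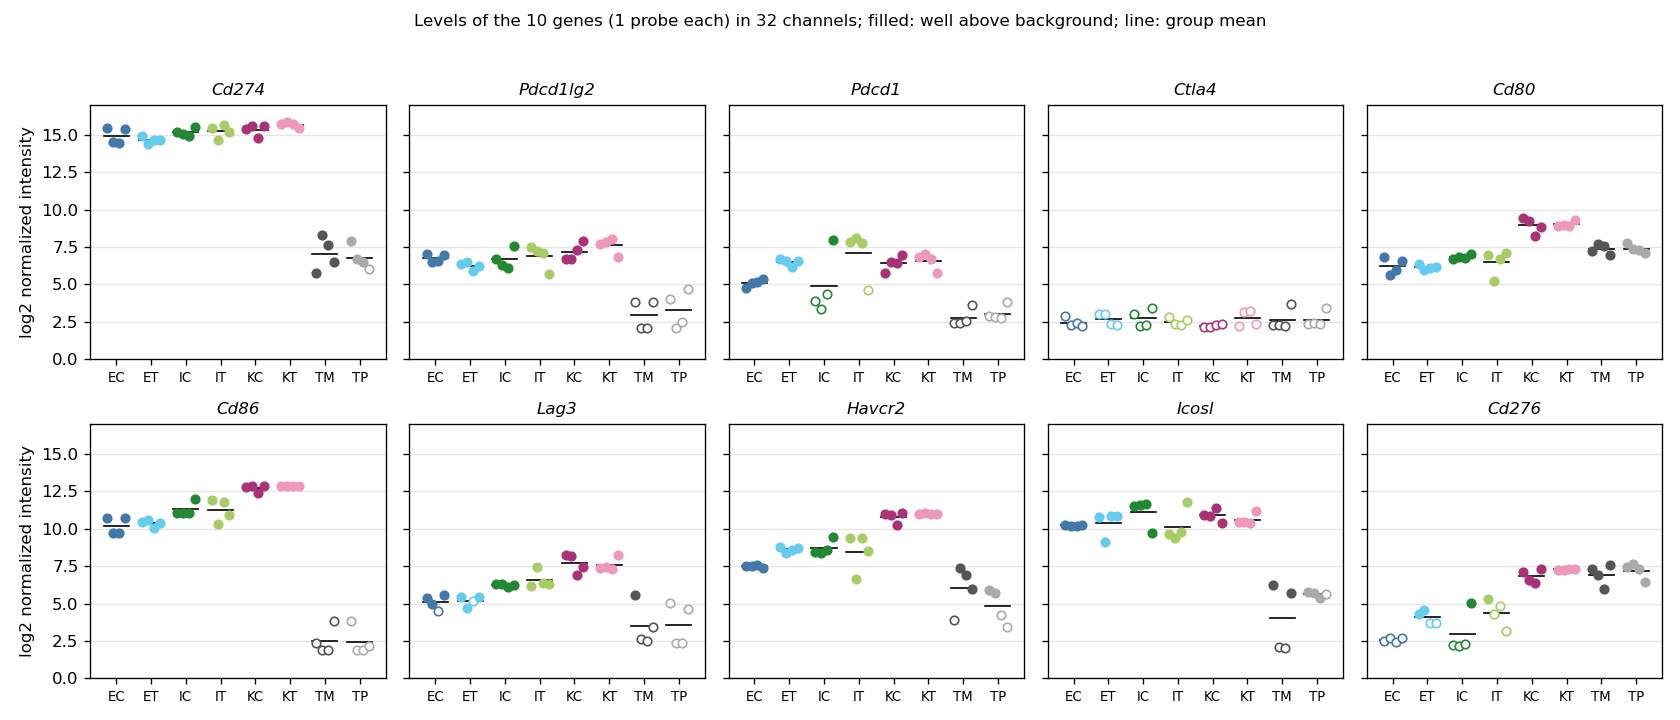
Level of each of the 10 genes by its lead probe in the 32 channels, as log2 normalized intensity by group (EC, ET, IC, IT, KC, KT, TM, TP). Each point is a sample, filled where it is well above background, and each line is a group mean; Cd274 reads 14.36 or more in all liver channels and 8.32 or less in all tumor channels, and Ctla4 has no filled point.

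Cd80 and Cd86, the ligands of Cd28 and Ctla4, had their highest levels in Kupffer cells. Cd80 read 9.41, 9.26, 8.24 and 8.85 in KC and 8.87, 8.96, 8.90 and 9.28 in KT by its lead probe. It lay between 5.63 and 6.82 in EC, 5.96 and 6.39 in ET, 6.71 and 7.02 in IC, 5.23 and 7.08 in IT. Both tumor groups had means between those of the Kupffer and Ito cells, at 6.97 to 7.71 in TM and 7.07 to 7.79 in TP, overlapped the Ito samples, and were well above background on all arrays. The step from KC down to TP was 1.55 with an adjusted p of 0.00014 by limma, and no other step in the order of this probe was called. The second Cd80 probe, 7.43 kb away, correlated with the lead probe at r = 0.92 over the liver channels but placed the tumors lower. Its mean of 8.56 in IC lay above those of TM (8.17), IT (7.94) and TP (7.78), and its called step was that from KT to IC, 1.11 (adjusted p = 0.00108).

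Cd86 showed the same top rank of Kupffer cells but no tumor level. It read 12.82, 12.87, 12.39 and 12.83 in KC and 12.83, 12.88, 12.85 and 12.88 in KT. In IC it read 11.05, 11.07, 11.07 and 12.02, in IT 11.92, 10.30, 11.78 and 10.95, in EC 10.70, 9.71, 9.71 and 10.72, and in ET 10.46, 10.58, 10.04 and 10.39. The Kupffer channels did not overlap any other group, and the step from KC to IC was 1.42 (adjusted p = 0.0196). That step was not called without replicate 1, 2 or 3 (adjusted p = 0.0871, 0.1 and 0.0935). All 8 tumor channels were not well above background, between 1.88 and 3.81.

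Ctla4, the inhibitory receptor for these ligands, was not well above background in any of the 32 channels and read 2.14 to 3.68. No order of its groups can be given from such values.

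The receptors Lag3 and Havcr2 also had their highest levels in Kupffer cells. Lag3, which binds MHC class II, read 8.24, 8.16, 6.94 and 7.44 in KC and 7.36, 7.44, 7.29 and 8.22 in KT. It lay between 6.08 and 6.31 in IC, 6.19 and 7.46 in IT, and 4.49 and 5.54 in EC and ET together. Of its neighbouring steps only that from EC to TP was called (adjusted p = 0.037 by limma), between groups that differ in dye and slide. TM replicate 1 alone of the tumor channels was well above background, so that the size of this step is not measured. Havcr2, a receptor of T cells and myeloid cells, read 10.96, 10.92, 10.26 and 11.08 in KC and 10.97, 11.06, 11.00 and 11.00 in KT. In EC it read 7.52, 7.54, 7.58 and 7.36, in ET 8.80, 8.38, 8.57 and 8.71, in IC 8.43, 8.39, 8.59 and 9.45, and in IT 9.39, 6.62, 9.36 and 8.49. ET lay above EC and Kupffer cells above all other groups without overlap. In the tumors it was above background on 3 of 4 TM arrays, at 7.40, 6.92 and 5.99, and on 2 of 4 TP arrays, at 5.90 and 5.69.

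Icosl, the ligand of Icos, had a level of 9.13 or more in every liver channel by its lead probe. IC read 11.54, 11.60, 11.67 and 9.74 and IT 9.62, 9.36, 9.81 and 11.76, so that IC replicate 4 sat with IT replicates 1 to 3 and IT replicate 4 with IC replicates 1 to 3. KC read 10.91, 10.88, 11.38 and 10.41, KT 10.46, 10.46, 10.38 and 11.16, EC 10.27, 10.16, 10.21 and 10.25, and ET 10.79, 9.13, 10.87 and 10.85. No step between the liver groups was called, and the step of 4.51 from IT to TP was (adjusted p = 5.53e-06). The second Icosl probe was not well above background in any channel and had r = 0.07 with the lead probe over the liver channels, so it gave no level for the gene.

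Cd276 was the member for which the tumors stood with the top group. TM read 7.32, 6.89, 5.94 and 7.56, TP 7.41, 7.62, 7.34 and 6.44, KC 7.13, 6.56, 6.40 and 7.28 and KT 7.23, 7.27, 7.32 and 7.33. These 4 groups overlapped, and none of the 3 steps between them was called. EC read 2.49, 2.67, 2.42 and 2.70, all not well above background. ET read 4.33, 4.55, 3.69 and 3.73 with the first pair well above background. In Ito cells only IC replicate 4, at 5.01, and IT replicate 1, at 5.29, were well above background, the others reading 2.17 to 2.30 in IC and 3.15 to 4.85 in IT. The step from KC down to IT was 2.45 (adjusted p = 0.000917).

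**Figure D2:**
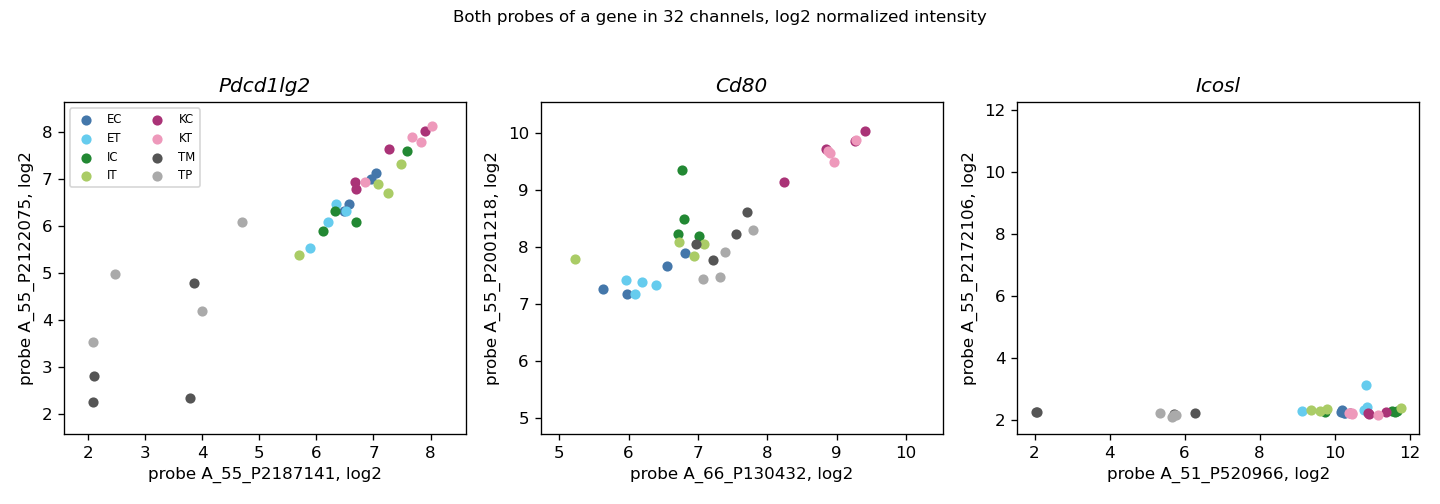
Level by the second probe (vertical) against the lead probe (horizontal) of Pdcd1lg2, Cd80 and Icosl, as log2 normalized intensity; each point is 1 of 32 channels, coloured by group. The Pdcd1lg2 and Cd80 probes rise together (r = 0.96 and 0.92 over the 24 liver channels), and the second Icosl probe stays between 2.10 and 3.11 whatever the lead probe reads.

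Whether the TME changed these genes was asked within each liver cell type. The limma fit took all 8 groups, with adjustment over 55681 probes. Of the 13 probes, 0 were called between ET and EC, where 1.14% of all probes were. The count was also 0 between IT and IC (0.289%) and between KT and KC (0.436%). At an unadjusted p under 0.05 the counts were 2, 3 and 0. The share of all probes at that threshold is not given here, so these counts are not read as a result. By the methods' t-test the counts were 3, 0 and 0 (4.01%, 2.22% and 0.0880% of all probes). ET and EC did not overlap for 3 probes, IT and IC for 1 and KT and KC for 0, against 13.0%, 8.92% and 7.06% of all probes. The median difference of the 10 lead probes was 0.17, 0 and 0.18, beside 0.01, 0 and 0 for all probes.

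In endothelial cells the receptors Pdcd1 and Havcr2 and the ligand Cd276 were higher in ET than in EC on each of the 4 arrays. Pdcd1 was higher by 1.95, 1.50, 1.00 and 1.20 on the log2 scale, a mean of 1.41 ± 0.70 (SE) with a 95% interval from -0.03 to 2.85, and the mean was 0.53 with normexp and quantile normalization. Havcr2 was higher by 1.29, 0.84, 0.99 and 1.35, a mean of 1.12 ± 0.59 with an interval from -0.09 to 2.33. Cd276 was higher by 1.84, 1.88, 1.27 and 1.03, a mean of 1.51 ± 0.48, which was 0.24 with normexp and quantile normalization. Their adjusted p-values in the limma fit of 8 groups were 0.67, 0.742 and 0.182. The exact permutation p was 0.0286 for each, two-sided, the smallest that 4 against 4 samples allow. EC replicates 1 and 4 correlated at 0.9991 and EC replicates 2 and 3 at 0.9983 over the probes above background in every channel. The median correlation of an EC channel with its own group was 0.989 to 0.99. The permutation test takes all 4 as independent samples, which was not tested. Because EC was not well above background for Cd276, its fold is given as a bound, at least 1.14-fold higher. The calls of these 3 genes depended on which samples set the error. Fitted with EC and ET alone, the adjusted p-values were 0.00368, 0.00165 and 0.0076 (limma, 5.29% of all probes called). By the methods' t-test they were 0.0132, 0.00541 and 0.0233 after adjustment. Without array 4 of the Ito and Kupffer cells, with the endothelial values unaltered, Pdcd1 (adjusted p = 0.00539) and Cd276 (0.00665) were called and Havcr2 (0.742) was not, at 1.64% of all probes. Without replicate 4 of all groups the calls of Pdcd1 (1.48, adjusted p = 0.00221) and Cd276 (1.67, adjusted p = 0.00904) were the same pair (0.765% of all probes).

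The other members showed no such shift in endothelial cells. Cd274 differed by -0.28 (95% interval -1.10 to 0.54), Pdcd1lg2 by -0.53 (-1.57 to 0.51), Cd80 by -0.09 (-0.72 to 0.55) and Cd86 by 0.16 (-0.70 to 1.01). Lag3 differed by 0.09 (-1.06 to 1.24) and Icosl by 0.18 (-1.25 to 1.62), with ET replicate 2 at 9.13 below the other ET samples. For each of them the EC and ET samples overlapped.

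Markers of several cell types differed between EC and ET beside these genes. Cd3d, a subunit of the T cell receptor complex, read 7.05, 7.05, 6.83 and 7.27 in EC and 8.04, 8.14, 7.58 and 8.05 in ET. Cd8b1, the beta chain of Cd8, was not well above background in EC (mean 2.64) and read a mean of 5.96 ± 0.16 (SD, n = 4) in ET (adjusted p = 0.0292). Of the 10 T and NK cell markers, Cd8b1 was the 1 called, where 1.14% of all probes were. The summed level of the list was 9.92 to 10.01 in EC and 10.18 to 10.65 in ET. Of the 8 monocyte and neutrophil markers none was called, yet their median difference was 2.78 and their summed level was 10.03 to 10.54 in EC and 11.94 to 13.01 in ET. S100a9, a neutrophil calcium-binding protein, read 8.80, 7.73, 7.75 and 8.86 in EC and 11.84, 11.74, 10.57 and 11.47 in ET. The summed Kupffer markers lay at 15.19 to 15.82 in EC and 15.97 to 16.60 in ET, the endothelial markers at 15.71 to 15.85 and 14.77 to 15.43, the dendritic cell markers at 11.62 to 12.49 and 10.93 to 11.27, and the stellate markers at 17.93 to 18.32 and 17.18 to 17.91, all without overlap. The 5 B cell markers, none called, summed to 9.05 to 9.16 in EC and 6.77 to 9.03 in ET, also without overlap. ET replicate 2 stood apart from the other ET samples in summed epithelial (13.56 against 11.11 to 11.19), hepatocyte (15.22 against 13.85 to 13.97) and B cell markers (9.03 against 6.77 to 7.65). Of the 8 hepatocyte markers, 2 were called lower in ET, where 0.564% of all probes were lower. The part of these cells in the differences of Pdcd1, Havcr2 and Cd276 was not tested.

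**Figure D3:**
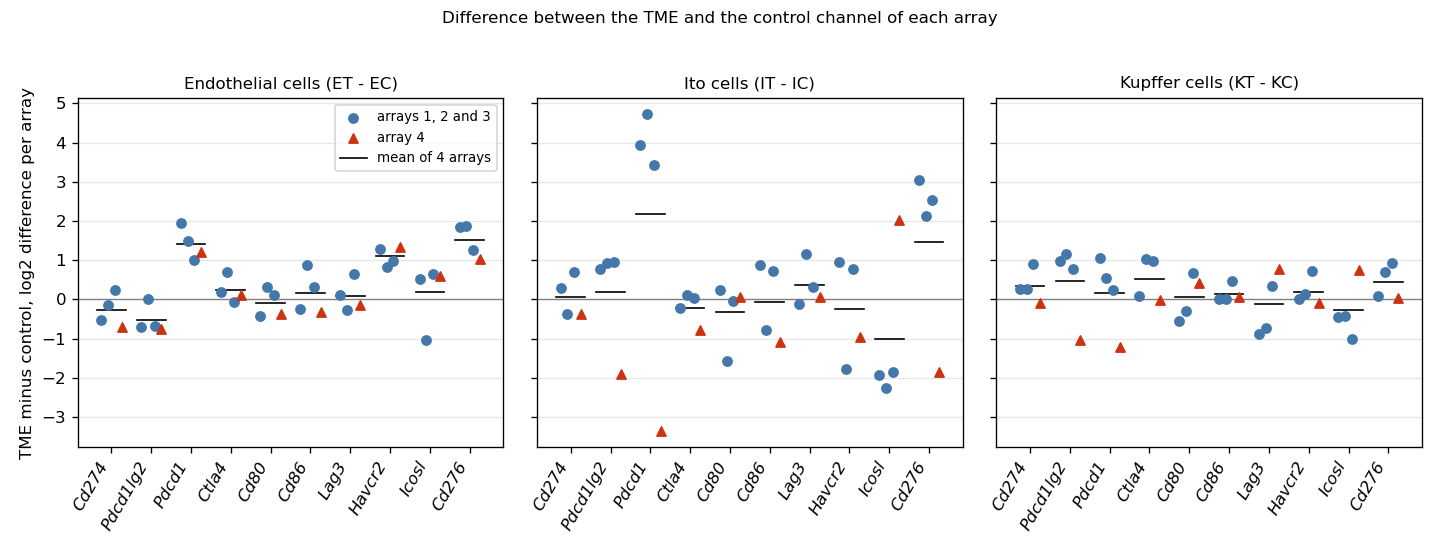
Difference between the TME and the control channel of each array (log2, vertical) for the 10 genes by lead probe in endothelial, Ito and Kupffer cells; circles are arrays 1 to 3, triangles array 4, and bars the mean of 4 arrays. Pdcd1 in Ito cells lies at 3.94, 4.73 and 3.44 on arrays 1 to 3 and at -3.36 on array 4, and Icosl in Ito cells shows the opposite signs.

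In Ito cells Pdcd1, Cd276 and Icosl had large differences on arrays 1 to 3 and the opposite sign on array 4. Pdcd1 was higher in IT by 3.94, 4.73 and 3.44 and by -3.36 on array 4, which gave a mean of 2.19 ± 0.70 (adjusted p = 0.279). Cd276 differed by 3.04, 2.14, 2.54 and -1.86 (mean 1.46 ± 0.48, adjusted p = 0.303), and Icosl by -1.92, -2.25, -1.85 and 2.02 (mean -1.0 ± 0.70, adjusted p = 0.666). With normexp and quantile normalization the means were 0.91 for Pdcd1 and 0.21 for Cd276. Without array 4 of the Ito and Kupffer cells, Pdcd1 was higher by 4.04 ± 0.32 (95% interval 3.38 to 4.69, adjusted p = 6.66e-08) and Cd276 by 2.57 ± 0.35 (1.86 to 3.29, adjusted p = 5.81e-05). These were 2 of the 13 probes, where 7.66% of all probes were called. As none of the remaining IC samples was well above background for either gene, their bounds are at least 3.20-fold for Pdcd1 and at least 1.22-fold for Cd276, the latter with 1 of 3 IT samples above background. Icosl was lower by 2.01 ± 0.75 without array 4 and was not called (adjusted p = 0.112). The exact permutation test of 3 against 3 samples cannot go below 0.1.

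The T cell and neutrophil markers followed the same array pattern in Ito cells. Cd3d read 4.85, 3.33, 3.87 and 8.97 in IC and 8.98, 8.51, 8.62 and 4.80 in IT. S100a9 read 8.55, 8.09, 8.07 and 13.20 in IC and 13.01, 12.52, 12.27 and 8.81 in IT. For both, IC replicate 4 sat with IT replicates 1 to 3, as it did for Pdcd1. The summed level of the T and NK cell markers was 9.48, 9.52, 9.47 and 11.10 in IC and 11.04, 11.93, 10.88 and 9.77 in IT. The T and NK cell markers are a list of 10. The summed endothelial markers had the opposite signs, at 15.25, 15.27, 15.21 and 14.39 in IC and 14.27, 13.65, 14.49 and 15.34 in IT. Without array 4, 6 of those 10 and 6 of the 8 monocyte and neutrophil markers were higher in IT, where 7.66% of all probes were called. In the same fit the endothelial markers Lyve1 (-2.54) and Cdh5 (-1.36) and the stellate markers Reln (-1.65) and Ngfr (-1.93) were called lower in IT. The hepatocyte marker Hnf4a was called higher (1.11). The part of these cells in the level of Pdcd1 and Cd276 was not tested.

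Pdcd1lg2 had the same array pattern in Ito cells, with differences of 0.78, 0.94, 0.95 and -1.89 by its lead probe (mean 0.20, 95% interval -0.84 to 1.24, not called). Without array 4 it was not called, at 0.89 (adjusted p = 0.36) by the lead and 0.87 (0.414) by the second probe, and the groups then did not overlap. The second Cd80 probe was lower in IT on all 4 arrays, by 0.38, 0.70, 1.26 and 0.14, without overlap (mean -0.62 ± 0.24, adjusted p = 0.386). The lead Cd80 probe did not share this, at 0.23, -1.57, -0.05 and 0.07 (mean -0.33 ± 0.31). Cd274 differed by 0.07 (-0.75 to 0.89), Cd86 by -0.06 (-0.92 to 0.79), Lag3 by 0.36 (-0.79 to 1.51) and Havcr2 by -0.25 (-1.46 to 0.96). IT replicate 2, with Cd80 at 5.23 and Havcr2 at 6.62, was the lowest Ito sample for both genes and is among the channels nearest to another group. It also had the highest Pdcd1 level of the Ito samples, 8.09. Its summed epithelial markers were at 17.23, against 12.19 to 12.65 in the other Ito channels, its B cell markers at 11.17 and its T and NK cell markers at 11.93 were the highest, and its Kupffer markers at 14.45 the lowest of the Ito channels. Their part in these levels was not tested. Leaving out array 2 of the Ito cells gave 0 calls for the members between IT and IC, as with all arrays.

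In Kupffer cells no member was called between KT and KC, the smallest adjusted p by limma being 0.782, for Ctla4 below background. Cd274 differed by 0.34 (95% interval -0.48 to 1.16), Cd86 by 0.13 (-0.72 to 0.99), Havcr2 by 0.20 (-1.01 to 1.41) and Pdcd1 by 0.16 (-1.28 to 1.59). The Pdcd1lg2 differences were 0.99, 1.15 and 0.77 on arrays 1 to 3 and -1.04 on array 4. Without array 4, Pdcd1lg2 was 0.97 higher (adjusted p = 0.394), Pdcd1 0.61 (0.371), Cd276 0.58 (0.474) and Cd274 0.48 (0.773) higher, and Icosl 0.62 lower (0.844). None of the 13 probes was called there, against 3.85% of all probes. In that fit KC and KT did not overlap for Cd274, both Pdcd1lg2 probes, Pdcd1, Havcr2, the lead Icosl probe and Cd276. The share of all probes without overlap is not given for it, so this is not read as a result. The monocyte and neutrophil markers Ccr2, Camp and Ngp and the T cell markers Cd3g and Cd8b1 were called higher in KT in that fit, and the endothelial marker Cdh5 lower. With all arrays the summed monocyte and neutrophil markers read 11.69, 11.64, 12.04 and 13.77 in KC and 13.52, 13.58, 13.47 and 11.78 in KT. The part of these cells was not tested.

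Whether the TME change differed between cell types was tested as a difference of differences. With all arrays no member probe was called in any of the 3 comparisons of cell types (Ito against endothelial 0.111% of all probes, Kupffer against endothelial 0.0808%, Kupffer against Ito 0.00359%), the smallest adjusted p being 0.995. Without array 4 of the Ito and Kupffer cells, limma called Pdcd1 between Ito and endothelial cells (adjusted p = 0.00131, 1.67% of all probes called) and between Kupffer and Ito cells (adjusted p = 0.000889, 0.183%). Both calls rest on IC values at background, so that the Ito change is known only by its bound of at least 3.20-fold and the size of these differences is not measured. No other member was called in these tests, and none between Kupffer and endothelial cells (0.395%).

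Between cell types, Cd80, Cd86, Havcr2 and Cd276 were called higher in Kupffer cells than in endothelial and Ito cells, while Cd274, Pdcd1 and the lead probes of Pdcd1lg2 and Icosl were not. Of the 13 probes, 6 were called between KC and EC, all higher in KC, where 21.0% of all probes were called in either direction and 8.95% higher. The gene with the largest difference that both groups measured was Havcr2, higher by 3.31 ± 0.59 (9.89-fold, adjusted p = 0.000146). Cd80 was higher by 2.69 ± 0.31 (6.46-fold, adjusted p = 4.35e-07), Lag3 by 2.62 ± 0.56 (6.14-fold, 0.00102) and Cd86 by 2.52 ± 0.42 (5.72-fold, 6.14e-05). With normexp and quantile normalization the Lag3 difference was 1.31. Cd276 was at least 2.34-fold higher, with EC not well above background (adjusted p = 3.49e-07). The groups did not overlap for 8 probes, against 28.4% of all probes. Pdcd1 was higher by 1.34 in KC (adjusted p = 0.201) and was called without array 4 (1.16, adjusted p = 0.00663).

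Between KC and IC 5 probes were called, again all higher in KC, where 14.8% of all probes were called and 7.24% higher. They were both Cd80 probes (2.11 and 1.12), Cd86 (1.42), Havcr2 (2.09, adjusted p = 0.015) and Cd276 (adjusted p = 3.46e-06), while Lag3 was higher by 1.47 with an adjusted p of 0.0804, called under 5 of 14 alternatives with a size down to 0.84. The second Cd80 probe lost its call with only these groups in the fit (adjusted p = 0.0654) or by the methods' t-test (0.0993), Cd86 without replicate 1, 2 or 3 (0.0871, 0.1 and 0.0935), and Havcr2 without replicate 3 (0.0779) or replicate 4 (0.0519). KC replicate 3, at 8.24 for Cd80, 12.39 for Cd86 and 10.26 for Havcr2, was the lowest Kupffer sample for each of the 3 genes. Its summed T and NK cell markers were at 11.03, against 9.15 to 9.68 in the other KC samples, its B cell markers at 10.43, against 7.71 to 8.68, and its Kupffer markers at 16.18 were the lowest of the Kupffer channels, and their part was not tested. Between IC and EC 1 probe was called, the second Cd80 probe, higher in IC by 1.06 (adjusted p = 0.00336, with 9.89% of all probes called and 4.17% higher), and not without replicate 3 (0.69, adjusted p = 0.0904), with only these groups in the fit (0.0562) or by the methods' t-test (0.0947). Without array 4 Pdcd1 was also called lower in IC than in EC (adjusted p = 0.00762) and in KC (1.88e-05), but none of the remaining IC samples was well above background, so that the size is not measured.

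The TME cells had the same top group. Between KT and ET 8 probes were called, where 21.8% of all probes were, 7 of them higher in KT, as were 9.64% of all probes. Both Cd80 probes (2.84 and 2.35), Cd86 (2.49), Lag3 (2.41, adjusted p = 0.00208), Havcr2 (2.39, adjusted p = 0.00348) and Cd276 were higher. The second Pdcd1lg2 probe was higher by 1.58 (adjusted p = 0.0322), a call lost without replicate 1, 2 or 3 (adjusted p = 0.125, 0.114 and 0.264), and the lead probe by 1.36 (0.0549), which was called under 8 of 14 alternatives, without array 4 among them (1.61, adjusted p = 0.0181). Cd274 was higher by 1.03 (adjusted p = 0.0679) and called under 5 of 14. The probe called lower was the second Icosl probe, at background in both groups and not called without array 4. Between KT and IT 5 probes were called (15.2% of all probes), both Cd80 probes (2.51 and 1.73), Cd86 (1.62, adjusted p = 0.0081), Havcr2 (2.54, 0.00351) and Cd276 (0.000136), all higher in KT, as were 7.74% of all probes. At the stricter thresholds of the methods, an adjusted p under 0.001 and at least 4-fold, 2 probes were called between KC and IC (0.927% of all probes), 4 between KT and ET (2.32%) and 2 between KT and IT (0.937%). The size of the Cd276 differences depends on values near background, as 1 of 4 IC, 2 of 4 ET and 1 of 4 IT samples were well above it: they were 3.91 against IC, 3.21 against ET and 2.89 against IT, and 1.17, 1.39 and 1.30 with normexp and quantile normalization. Between KT and IT, Cd86 and Havcr2 lost the call without replicate 2 (adjusted p = 0.111 and 0.0526), and Havcr2 by the methods' t-test (0.0607). Between IT and ET 0 probes were called by limma (8.26% of all probes). At an unadjusted p under 0.05 there were 3, a count that has no share of all probes beside it and is not read further. Without array 4, Pdcd1 was higher in IT than in ET by 1.41 (adjusted p = 0.00321) and lower in KT than in IT by 1.05 (0.0291).

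The summed Kupffer markers lay between 15.19 and 15.82 in EC, 15.97 and 16.60 in ET, 16.39 and 18.68 in IC, 14.45 and 18.41 in IT, 16.18 and 18.96 in KC and 17.43 and 18.48 in KT, and between 7.58 and 9.93 in the tumors. KC and EC did not overlap, nor did KT and ET, and 5 of the 8 markers were called higher in each of these pairs. Of all probes 8.95% and 9.64% were higher there. KC and IC overlapped with 0 of the 8 called (smallest adjusted p = 0.214), and KT and IT overlapped with 2 of the 8 called higher in KT (smallest adjusted p = 0.0172). For all probes the shares called higher were 7.24% in KC against IC and 7.74% in KT against IT. All Ito channels but IT replicate 2, at 14.45, lay within the range of the Kupffer channels. The highest of them were IC replicate 4 and IT replicates 1 and 3, at 18.68, 18.41 and 18.40. Of the 8 dendritic cell markers, 3 were called higher and 3 lower in KC than in EC, 3 and 1 against IC, 4 and 2 in KT against ET and 3 and 1 against IT, with sums of 12.94 to 13.82 in KC and 12.75 to 12.93 in KT above all other liver channels. All 8 hepatocyte markers were called lower in KC than in IC and in KT than in IT. Of all probes 7.57% and 7.46% were lower there. Against endothelial cells 1 of them was called higher in KC than in EC and 3 in KT than in ET. Of the 8 endothelial markers, 3 were called lower in KC than in EC and 2 in KT than in ET. Lower there were 12.1% and 12.2% of all probes. Of the 8 monocyte and neutrophil markers, 2 were called higher in KC than in EC and 0 in KC than in IC or in KT than in ET or IT. The part of these cells in the levels of Cd80, Cd86, Lag3, Havcr2 and Cd276 was not tested.

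**Figure D4:**
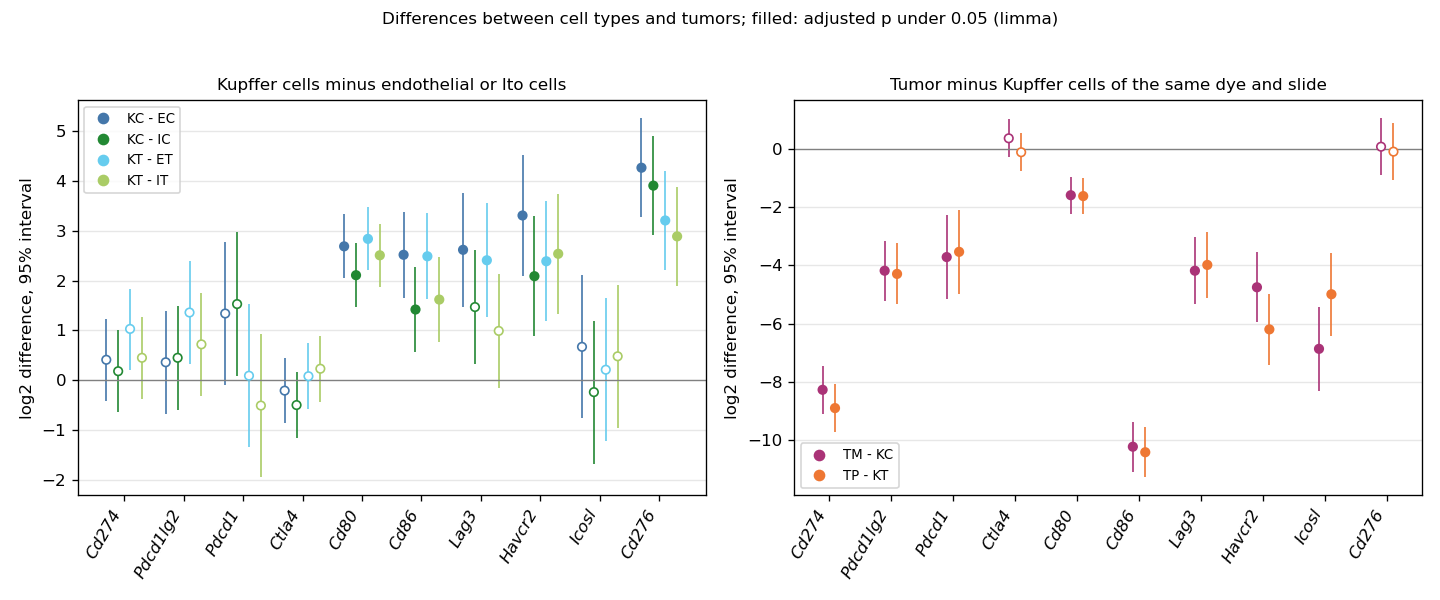
Differences (log2, vertical, with 95% interval of the limma fit) of the 10 genes by lead probe between cell types and between tumors and Kupffer cells; filled points have an adjusted p under 0.05. Cd80, Cd86, Havcr2 and Cd276 are higher in KC than in EC and IC, and TM and TP lie below Kupffer cells for all measured genes but Cd276.

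Tumor cells were set against Kupffer cells of the same dye and slide, TM against KC and TP against KT. Most of the members were lower than in Kupffer cells or at background in the tumors, with 10 of the 13 probes lower in TM and 10 lower in TP, against 39.4% and 43.6% of all probes called in either direction and 16.2% and 17.8% called lower. The count was 10 in both with each replicate number left out in turn. Cd274 was lower in TM by 8.28 ± 0.40 (311-fold, adjusted p = 1.91e-15) and in TP by 8.91 ± 0.40 (481-fold, adjusted p = 4.04e-16). Cd86 was at least 101-fold lower in TM and at least 100-fold lower in TP. Icosl was lower by 6.87 in TM, with 2 of 4 TM samples well above background, and by 4.99 (31.9-fold) in TP with 3 of 4. Havcr2 was lower by 4.75 (26.9-fold) in TM with 3 of 4, and by 6.20 in TP with 2 of 4. Under the alternatives the Havcr2 difference ran from -5.22 to -3.73 in TM and from -6.58 to -4.29 in TP. With normexp background correction and quantile normalization the Icosl difference in TM was -4.45. Pdcd1lg2 was at least 2.54-fold and at least 2.96-fold lower by its lead probe, and Pdcd1 at least 1.86-fold and at least 1.66-fold lower. Cd80 had the smallest called differences of the lead probes that both sides measured, 1.58 lower in TM and 1.61 lower in TP.

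Cd276 differed from Kupffer cells by 0.09 in TM (95% interval -0.90 to 1.08, adjusted p = 0.931) and by -0.08 in TP (-1.07 to 0.91, adjusted p = 0.932). These intervals allow a difference of up to about 2-fold either way. Against the mean of the liver cell types of the same dye, some of them at background, Cd276 was called higher in TM (adjusted p = 9.3e-07) and in TP (adjusted p = 0.000152), and 8 of the other 12 probes were lower in TM and 9 in TP (42.9% and 45.8% of all probes were called, 16.7% and 18.0% lower). The second Cd80 probe lost its call in TP without array 4 (-0.50, adjusted p = 0.0527) and without replicate 2 (0.0531), 3 (0.0625) or 4 (-0.38, 0.252). The mean of the liver types spans both slides. On the same scale Cd80 differed by 0.03 in TM and 0.17 in TP by its lead probe, which was not called.

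Between the tumors 0 of the 13 probes were called by limma, where 3.01% of all probes were, and 0 by the methods' t-test (0.361%). At an unadjusted p under 0.05 there were 3, a count given without a share of all probes and not read further. The second Pdcd1lg2 probe was higher in TP on all 4 arrays, by 1.85, 0.73, 2.73 and 1.30 (mean 1.65 ± 0.53, adjusted p = 0.0896), but the lead probe differed by only 0.36 (-0.68 to 1.40). Havcr2 differed by 1.99, -1.71, -2.70 and -2.57 (mean -1.25 ± 0.59, adjusted p = 0.287). The tumor arrays differed among themselves, as the differences of arrays 1 and 4 correlated with the mean of the others at -0.20 and -0.07 and those of arrays 2 and 3 at 0.64. Without replicate 1 Havcr2 was called lower in TP (adjusted p = 0.0288, with 2473 of all 55681 probes called), but 2 of the 3 TP samples left were not well above background, so that the size is not measured. Without replicate 4 the second Pdcd1lg2 probe was called higher (1.77, adjusted p = 0.00725, 2.77% of all probes), although none of the samples left was well above background for that probe. Icosl differed by -0.51, 3.66, 3.30 and -0.04 (mean 1.60 ± 0.70, adjusted p = 0.239), with TM replicates 2 and 3 below background and replicates 1 and 4 at 6.27 and 5.72. TM replicates 1 and 4 are among the channels nearest to one of another group.

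The partners of these genes were read from a list of 36 other coinhibitory and costimulatory genes, of which 35 were measured. Between ET and EC 1 was called, where 1.14% of all probes were. It was Lgals3, a galectin that binds Lag3, higher in ET (16.29 ± 0.18 against 15.21 ± 0.11, SD, n = 4, difference 1.08, adjusted p = 0.000873 by limma). Its EC and ET samples lay further apart than their spread. No partner was called between IT and IC or between KT and KC (0.289% and 0.436% of all probes), with smallest adjusted p-values of 0.134 and 0.498 by limma. Cd28, the receptor of Cd80 and Cd86, read 4.00 to 6.06 as liver group means and differed between ET and EC by 0.64 (adjusted p = 0.816). Icos, the receptor of Icosl, had means from 6.29 in ET to 7.43 in KT and was not well above background in the tumors. Fgl1, a secreted ligand of Lag3, was higher in TME cells by 1.77, 1.67 and 2.04 in the 3 cell types, none of them called (adjusted p = 0.832, 0.598 and 0.688). Without array 4 Fgl1 was called in Ito (3.61, adjusted p = 0.00272) and Kupffer cells (3.52, adjusted p = 0.00679). Of the hepatocyte markers, Hnf4a alone was called in Ito cells in the same fit (1.11, adjusted p = 0.0193) and none in Kupffer cells. The median difference of the list was 0.48 in Ito and -0.4 in Kupffer cells. With all arrays the summed hepatocyte markers read 17.12, 17.41, 17.22 and 18.74 in IC and 18.49, 17.29, 18.45 and 17.32 in IT. The part of hepatocytes in the level of Fgl1 was not tested. Without array 4 the Ito cells had 4 partners higher, Icos, Tnfrsf18, Cd96 and Fgl1. They had 4 lower, Tnfsf9, Tnfsf4, Tnfsf18 and Pvr, where 7.66% of all probes were called. The Kupffer cells had 2 higher, Cd96 and Fgl1, and 4 lower, Cd40, Tnfsf9, Cd70 and Lgals3 (3.85% of all probes), with Lgals3 at -0.68 (adjusted p = 0.0225). In IT, Cd96, a receptor of T and NK cells, was higher by 2.99 (adjusted p = 4.48e-07) and Tnfsf4, the OX40 ligand, lower by 2.56 (adjusted p = 0.00126).

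Across cell types 9 partners were higher and 2 lower in KC than in EC, where 8.95% of all probes were higher and 21.0% were called. Tnfsf4 was higher in KC by 5.20 (adjusted p = 1.22e-07), Tnfrsf9 (4-1BB) by 3.35 (2.82e-08), Tnfsf18, the GITR ligand, by 2.50 (2.83e-05) and Cd40, the receptor through which T cells activate antigen-presenting cells, by 1.95 (7.95e-05). Against Kupffer cells, 22 partners were lower and 3 higher in both TM and TP, where 39.4% and 43.6% of all probes were called and 16.2% and 17.8% were lower, with medians of -2.25 and -2.20 beside 0.08 and 0.10 for all probes. Lgals9, a galectin ligand of Havcr2, had means of 13.51 to 14.41 in the liver fractions and of 9.63 in both tumors (adjusted p = 8.01e-17 and 1.19e-17). Tigit, an inhibitory receptor, was called higher in the tumors but was well above background on only 2 TM and 1 TP arrays. Between the tumors 1 partner was called, Cd200, an inhibitory ligand for myeloid cells, higher in TP by 1.95 (adjusted p = 0.0422 by limma) with 1 array above background in each group. Of all probes 3.01% were called there.

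Interferon gamma is known to induce Cd274, and 12 genes of that route were read beside it. Jak1, a kinase of the interferon receptors, was the 1 called between ET and EC, lower in ET by 0.95 (13.58 ± 0.13 against 14.53 ± 0.12, adjusted p = 0.000302 by limma). Of all probes 1.14% were called there. Irf1, the factor that acts on the Cd274 promoter, had liver means of 15.93 to 16.33 and was at 12.37 in TM and 12.51 in TP, with differences from Kupffer cells of -3.86 and -3.63. Of the 12 genes 9 were lower in TM than in KC and 9 lower in TP than in KT, where 16.2% and 17.8% of all probes were lower, with medians of -2.63 and -2.92. Ifng itself had EC and ET means of 7.49 and 8.31 (adjusted p = 1), and without array 4 it was higher in IT by 5.84 (adjusted p = 3.34e-06) and in KT by 3.08 (0.00619).

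The 13 genes of T cell receptor signalling gave 1 call between ET and EC, Cd8b1, where 1.14% of all probes were called. With all arrays they gave none in the Ito or Kupffer comparison (0.289% and 0.436% of all probes). The smallest adjusted p-values by limma there were 0.257 and 0.691. Without array 4, 6 of the 13 genes were higher in IT, among them Cd3d by 4.69 (adjusted p = 5.35e-06 by limma), where 7.66% of all probes were called. In KT 2 were higher and 1 lower (3.85% of all probes). Ptpn6, the phosphatase SHP-1 that is also made by myeloid cells, was higher in KC than in EC by 3.44 (adjusted p = 9.2e-09).

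Over the 24 liver channels, the genes with the pattern most like each member were sought by Pearson's r among 9613 genes, and the values are descriptions over channels that share arrays and groups. Pdcd1 was most like Gyg (0.91), S100a9 (0.90) and Ropn1l (0.87), and Pdcd1lg2 was like Gpr31b (0.89) and Gpx1 (0.88). Cd86 was most like Il10ra, Hk3 and Nckap1l (0.98 each), Havcr2 like Sap30, Glrp1 and Scimp (0.98), Cd80 like Rufy3, Tex14 and Etv3 (0.98) and Cd276 like Plp2, Myo1e and Ptpn22 (0.98). Cd274 was most like Mndal (0.94), Trim30d and Tor1aip2 (0.93), Lag3 like Gadd45g (0.96), and Icosl like Nfkb1 (0.94) and Hivep2 (0.93). Among the members themselves, Cd80, Cd86 and Havcr2 had r of 0.93 to 0.94 with each other, and Pdcd1 and Icosl had -0.68.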

How the data were processed

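The mRNA of the 8 groups was hybridised by the authors to Agilent two-colour arrays and read with Feature Extraction 10.7.3.1. They deposited the scanner output and intensity values per probe and channel, linear and quantile normalized, which follows the processed signal of the scanner output (rank correlation of at least 0.9996). The labels gave each channel's group, dye and number. The log2 of these values was fitted with limma 3.58.1 (lmFit and eBayes, R 4.3.3), all 32 channels to 8 groups without covariates, with Benjamini-Hochberg adjustment over all 55681 probes and a call at an adjusted p under 0.05. The thresholds of the methods, an adjusted p under 0.001 and at least 4-fold, were an alternative. Exact permutation tests compared 4 channels with 4. The "well above background" marks and the normexp signals for the bounds, after loess and Aquantile, came from the scanner output, and bounds are open to dye bias: they set the mean of the brighter group against a floor per array of the dimmer one, the weakest signal there that still passed as well above background, or the probe's own signal if higher. Coordinates and probe sequences were those of the array files and exon annotation was not used here. The genes and gene lists were chosen with earlier results of these data known. Named are all members with all their probes, up to 6 genes per list with the smallest adjusted p among those called between TME and control or between TP and TM, the binding partners, further genes of these lists chosen after their values were seen, and up to 3 genes most like each member. A few genes so chosen are not reported here. A marker sum is the log2 of the summed intensities of the list. Alternatives were other normalizations, a filter on dim probes, the array as a block, fits of only the 2 groups, the methods' t-test and replicates left out. Figures used Python 3.11.15, pandas 2.3.3 and matplotlib 3.10.9. The fit was tested on simulated data, the outcome of which is not reported here, so nothing above rests on it. The miRNA, protein and patient data of the study were not analysed here.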

Additional observations from a re-analysis of the deposited data

Results flagged for a closer look

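In 104 sets of 4 samples, a set being a probe in a group, 15 had a sample that stood apart by Dixon's 95% criterion. The nominal rate of about 1 in 20 is for independent samples. The share over all probes of the array is not given here, so the count is not read as a result. For Pdcd1 the samples that stood apart were IT replicate 4 at 4.63 with the others at 7.79 to 8.09, TM replicate 4 at 3.60 (others 2.39 to 2.52) and TP replicate 4 at 3.80 (others 2.75 to 2.85), the tumor values being below background. For Ctla4, likewise below background, they were TM replicate 4 at 3.68 and TP replicate 4 at 3.45. Cd86 had IC replicate 4 at 12.02 (others 11.05 to 11.07), KC replicate 3 at 12.39 (others 12.82 to 12.87) and TP replicate 1 at 3.81, the last below background. Lag3 had IT replicate 2 at 7.46 (others 6.19 to 6.40) and KT replicate 4 at 8.22 (others 7.29 to 7.44). Icosl had ET replicate 2 at 9.13 (others 10.79 to 10.87), IC replicate 4 at 9.74 (others 11.54 to 11.67) and KT replicate 4 at 11.16 (others 10.38 to 10.46) by the lead probe, and ET replicate 4 at 3.11 by the other, below background. Cd276 had IC replicate 4 at 5.01 (others 2.17 to 2.30).

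The second Icosl probe went up with the TME on every endothelial and Ito array and down or not at all on every Kupffer array, so that the change differed by 0.30 between endothelial and Kupffer cells and by 0.09 between Ito and Kupffer cells. The limma test of these differences gave an adjusted p of 1, and the probe was below background in all channels.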

How the results depend on the processing

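The 45 differences of the members called in the 12 comparisons of groups gave 629 values under alternatives, of which 604 kept direction and call, 23 lost the call and 2 changed direction. Differences that were called on either side and changed direction all came from the second Icosl probe at background: 0.04 with normexp and quantile and 0.02 with normexp, loess and Aquantile between KT and ET, 0.64 with the 75th percentile between TP and KT, and 0.16, 0.13 and 0.56 under these normalizations between TM and the mean of the liver types. The cause was not tested. The count of called members between ET and EC was 0 in the fit of 8 groups, 3 with only these groups or by the methods' t-test, and 2 without array 4 of the Ito and Kupffer cells. It was 0 and, without array 4, 2 between IT and IC. Between IC and EC it was 1, and 0 at the stricter thresholds, 2 with normexp and quantile, 3 with loess and Aquantile, and 2 with the 75th percentile, only 2 groups, the t-test or without array 4, where only 2 groups and the t-test called Lag3 and Havcr2 in place of the second Cd80 probe. Between IT and ET it was 0, and 1 with normexp and quantile, the 75th percentile, only 2 groups, the t-test or without array 4. The stricter thresholds left 2 of 5 between KC and IC, 4 of 8 between KT and ET and 2 of 5 between KT and IT. The TME change of Ito against endothelial and of Kupffer against Ito cells gave 1 call each without array 4, Pdcd1 with IC at background. Normexp background correction shrank differences of dim probes by over 1.5 times, as for Cd276, Lag3, Pdcd1 and Pdcd1lg2, with values of 1.17 to 1.39 for Cd276 between Kupffer and Ito or endothelial cells. With a replicate number left out in turn, counts ranged from 0 to 2 for ET against EC and IT against IC, 0 to 1 for TP against TM and IT against ET, 0 to 2 for IC against EC, 3 to 5 for KC against IC, 6 to 8 for KT against ET and 3 to 6 for KT against IT.

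Samples of a number share an array, and their deviations from the group means correlated at 0.05 to 0.40 in endothelial cells and at -0.64 to 0.23 in the other types. In the main fit the numbers were not taken as pairs. The group means include array 4 of the Ito and Kupffer cells, whose channels ran against the rest. The correlations of these types therefore cannot decide whether channels of an array are paired. With the array as a replicate block the member counts were 0 in all 4 comparisons within arrays. Over all probes, 388 in place of 636 were called between ET and EC and 259 in place of 161 between IT and IC. Between KT and KC 226 in place of 243 were called, and between TP and TM 1781 in place of 1676. The consensus correlation was 0.0783 as a random block. A filter on dim probes kept 29013 probes. Signal over background limits Ctla4, the second Icosl probe, and Pdcd1, Pdcd1lg2, Cd86 and Lag3 in the tumors.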
